A study of Danio rerio with 4 samples.

Results

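An array of zebrafish labelled as kept in 3.9 µM copper to 96 hours post fertilization (hpf) was compared with an array of zebrafish of the same age labelled as kept without added copper. These are 2 of the 4 arrays of the study, and they were chosen by the treatment and age in the sample labels. Both hold RNA of whole embryos obtained by natural spawning and staged by morphology. The other 2 arrays hold RNA of 24 hpf embryos with 0 and 3.9 µM copper. The labels used here name no strain and no genotype, so nothing is known of an allele that the groups share, and they do not say how many animals were pooled for an array.

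With 1 array per group there is no replicate, so a difference at 96 hpf is a difference between 2 arrays, with no test and no p-value. Which of the 2 arrays held copper is not settled. The sample titles and the agent field give one reading, and the names of the attached scanner files give the opposite. The authors' deposited table lists 1868 probes as down and 1100 as up in copper at 96 hpf, and all 2964 listed probes kept here have the opposite sign when the sample labels are followed. Here "the copper array" and "the control array" follow the sample labels, and every difference is the copper array minus the control array. If the file names are right, the sign of each 96 hpf difference below turns and its size stays the same. Age differences are means over both arrays of an age and would not turn, so counts of genes or lists that differ against age would change, as given with them.

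Around this age a zebrafish larva still lives on its yolk, while its gut, pancreas and liver begin to work, its retina begins to see, and its skin and kidney take over salt balance. The hatching gland, a transient tissue on the yolk surface, secretes proteases that soften the egg coat and then disappears, and the first red blood cells give way to later ones. Copper is needed by enzymes such as cytochrome c oxidase, lysyl oxidase and superoxide dismutase, and is toxic in excess, so cells import, chaperone and export it under tight control and hold surplus metal on metallothioneins.

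On the 96 hpf control and copper arrays, 80.2% and 76.9% of the probes read were well above background, with median signals of 194.5 and 190.4. On the 24 hpf arrays these shares were 78.1% and 83.6%, with median signals of 162.3 and 366.8. Repeat spots of a probe on the same array had a median SD between 0.06 and 0.12 (log2), a measure of printing and scanning error alone. A level below is the quantile-normalized log2 intensity of a gene's probe, and levels are given in the order 24 hpf control, 24 hpf copper, 96 hpf control, 96 hpf copper. A count of probes beside a fold gives direction alone, and the fold is that of the gene's brightest probe. Of 35413 probes well above background on at least one 96 hpf array, 1991 (5.62%) were higher on the copper array by 2-fold or more and 1105 (3.12%) were lower. Of 12253 named genes, 742 (6.06%) were higher and 261 (2.13%) lower, and the median gene differed by -0.05. These shares are the background for every list count below. Of the genes past 2-fold 74.0% were thus higher, against 84.7% after normexp background correction, which left 511 higher and 92 lower. Among probes past 2-fold the share of higher ones was 64.3%, and 79.5% after normexp. Among 6961 genes with several probes, 237 were higher by 2-fold on every probe and 56 lower on every probe. A total of 333 genes were well above background only on the control array and 108 only on the copper array. For those, a bound is given: the bright level against the higher of the dim level and the lowest level called above background on the dim array. The bounds of these genes hold without normexp, and after it a difference can be smaller. With these genes at their bounds, 710 genes (5.79%) were higher and 207 (1.69%) lower. In whole animals, fewer cells of a type and less RNA per cell cannot be told apart.

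**Figure D1:**
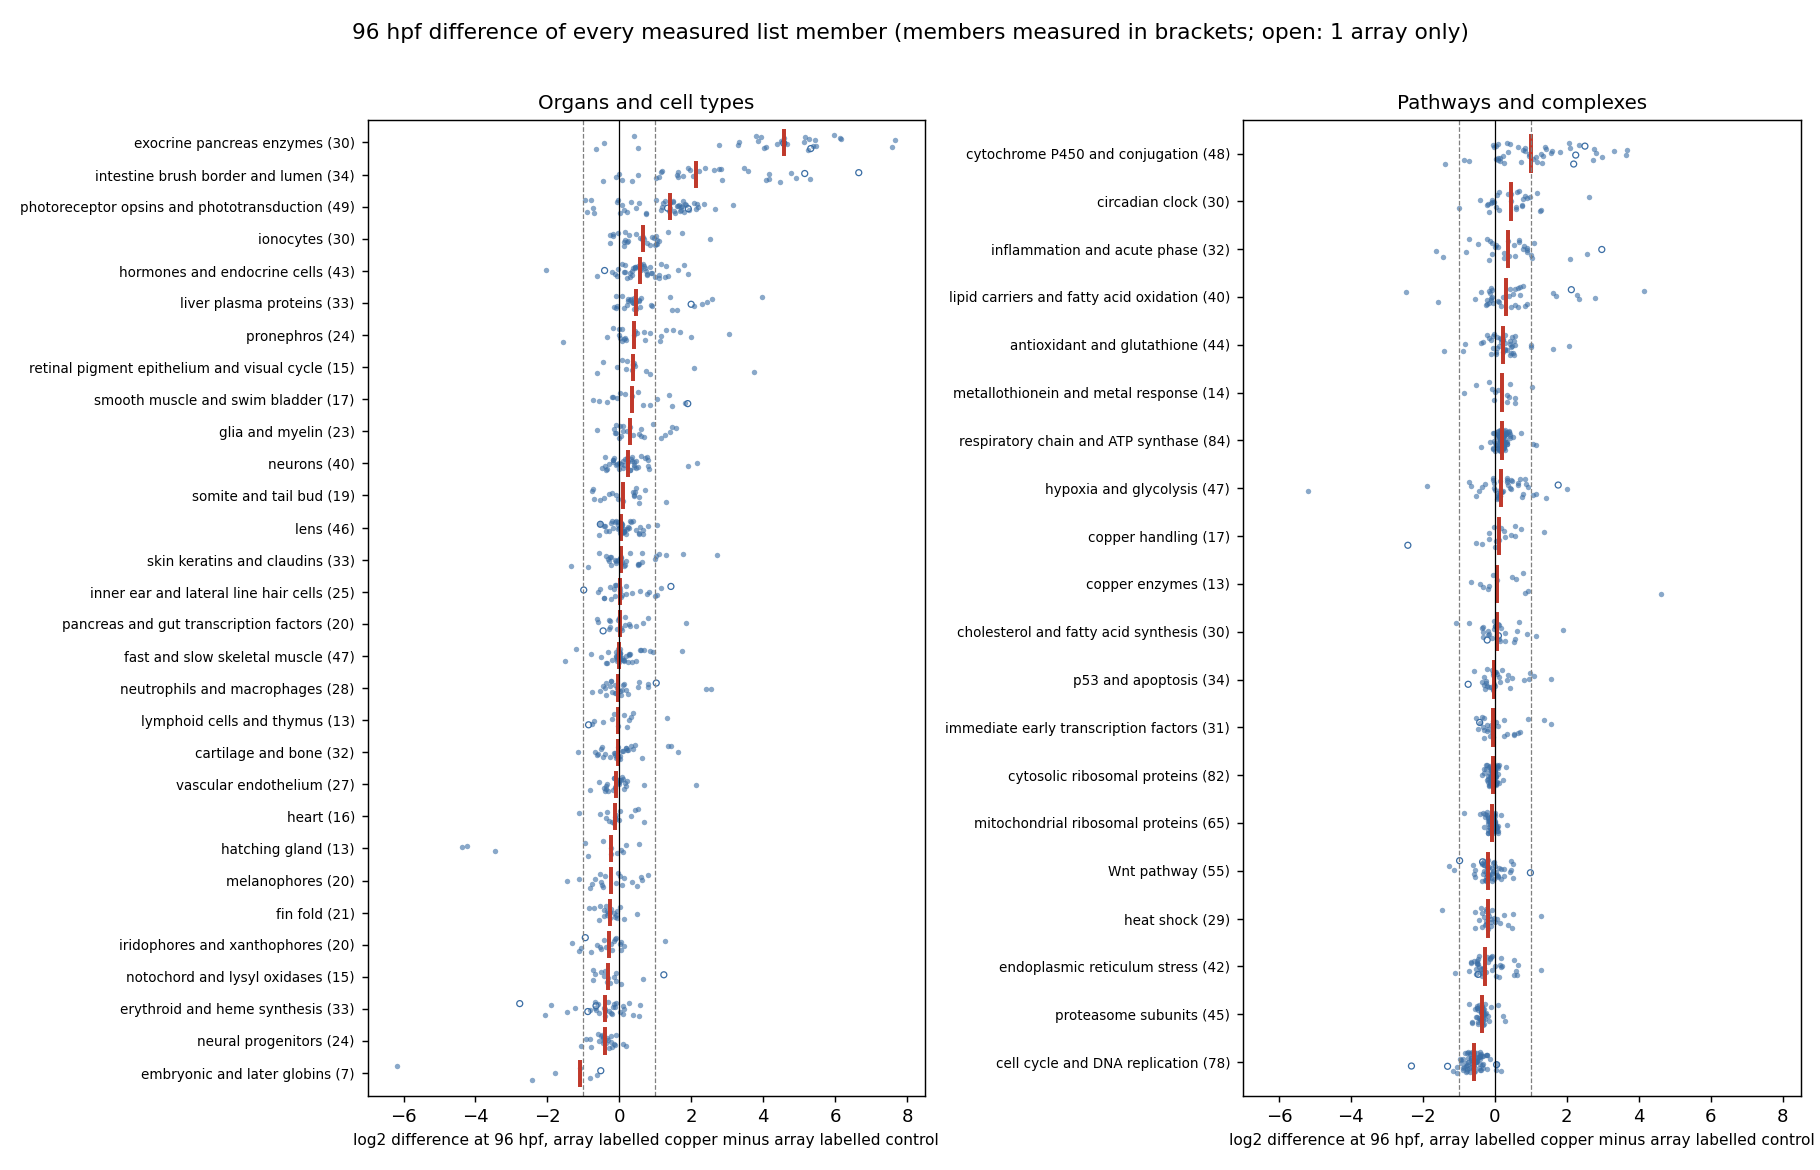
The horizontal axis is the log2 difference at 96 hpf (array labelled copper minus array labelled control), and each row is a gene list with the number of measured members in brackets. Dots are genes (open where only 1 of the 2 arrays was well above background), red bars are list medians and dashed lines mark 2-fold. Exocrine pancreas (median 4.58), intestine (2.13) and photoreceptor genes (1.41) lie to the right, globins (-1.10) and cell cycle genes (-0.58) to the left.

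The list of exocrine pancreas genes, mostly digestive enzymes, had the highest median difference of the 50 gene lists. The acinar cells of this gland make proteases, amylase and lipases and store them for release into the gut. Of 38 listed genes 30 were on the array and measured, 28 of them on both 96 hpf arrays. Of the 30, 26 were higher on the copper array by 2-fold and none was lower by 2-fold, with a median of 4.58, and the 2 genes seen only on the copper array could only differ in that direction. The median level of the list was 5.73, 4.88, 7.35 and 13.03 on the 4 arrays. On the control array it was thus closer to the levels at 24 hpf than to the level on the other 96 hpf array.

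Chymotrypsinogen ctrb.2, a protein-cutting enzyme precursor, had levels of 3.12, 3.71, 5.17 and 12.83. It was 202.9-fold higher on the copper array, on its single probe, and was not well above background at 24 hpf. The 96 hpf control level of 5.17 lay near 4.08, the lowest level called above background on that array. After normexp the difference was 5.94 rather than 7.66. In the authors' deposited table this probe lies on Zv9 at chr7:36524403-36524462, and its log2 change for copper is -7.66. The elastase ela2 stood at 9.06, 8.98, 8.97 and 15.14, so the 96 hpf control array stood at the 24 hpf level while the copper array was 71.9-fold above it. Both ela2 probes were higher. The same table places the ela2 probe on Zv9 at chr8:21919524-21919679, with a log2 change of -6.17.

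Other proteases differed in the same direction. The astacin-type protease c6ast4 had levels of 2.03, 1.92, 6.02 and 13.61. Chymotrypsinogen ctrb.3 had levels of 3.05, 2.11, 10.17 and 15.62, a 43.7-fold difference at 96 hpf, and the related ctrl was 38.7-fold higher on 2 of 2 probes. Trypsin prss59.1 differed by 5.17, elastase ela3l by 6.14 and carboxypeptidase cpa5 by 5.12. Fat and starch digestion showed the same pattern. The bile-salt-activated lipase cel.2 had levels of 5.87, 5.08, 5.46 and 10.91, and pancreatic amylase amy2a had 8.45, 7.22, 7.71 and 12.96. For both, the 96 hpf control array lay between the 24 hpf arrays. Syncollin sycn.2, a protein of the zymogen granule, was 62.6-fold higher. Amylase amy2al2 and carboxypeptidase cpa1 were dim on the control array. Their copper array levels were higher by at least 30.8-fold and 19.5-fold. After normexp they differed by 2.97 and 2.11 (log2).

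Across this list 28 genes were above 0 and 2 below. Within 2-fold were 4 of its genes, of which 3 are named. Amylase amy2al1 differed by -0.66, with 1 probe higher and 1 lower, and c6ast1 by 0.53. The listed gene rnaseka, which is not a digestive enzyme, differed by 0.42. The lowest member past 2-fold was the elastase cela1.3 at 2.76. These genes are named after their values were seen.

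The transcription factors that specify pancreas and gut did not differ with the enzymes. Of 20 measured factors 1 was higher by 2-fold, a share near the 6.06% of all genes. None was lower, and the median was 0.02. The acinar factor ptf1a had levels of 9.60, 9.31, 9.25 and 9.24, a difference of -0.02. Pancreatic pdx1 was 1.74-fold higher. The intestinal and hepatic factor hnf4g, the member past 2-fold, had levels of 8.35, 7.38, 9.46 and 11.31 and was higher on 2 of 2 probes. The islet hormone insulin (ins) had levels of 11.00, 10.35, 12.42 and 12.73, and was 1.23-fold higher on 2 of 2 probes.

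Genes of the intestinal brush border and lumen were also higher on the copper array. These encode the peptidases, transporters and fatty acid carriers by which the gut epithelium takes up food. Of 55 listed genes 34 were measured, 32 on both arrays, and 28 were higher by 2-fold, none lower, with a median of 2.13. The median level was 6.93, 6.53, 8.42 and 11.43.

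Chitinase chia.2 had levels of 5.87, 5.08, 8.23 and 13.53 and was 39.3-fold higher on 2 of 2 probes. Its neighbour in sequence chia.3 was 30.3-fold higher, with the lowest of its 3 probes at 2.13 (log2). Cross-hybridisation between such related genes was not tested. Meprin mep1a.1, a brush border metalloprotease, had levels of 5.91, 4.14, 6.24 and 11.02. The related mep1a.2 was dim on the control array at 3.34 and stood at 9.99 on the copper array, at least 60.3-fold higher. After normexp it differed by 3.74 (log2). The ileal bile acid carrier fabp6 was 17.9-fold higher, and the keratin krt93, dim on the control array, at least 30.3-fold. After normexp krt93 differed by 2.91 (log2). Its other probe differed by 1.31 without normexp. The phosphate transporter slc34a2a, which the highest-difference rule named, had levels of 1.89, 1.86, 6.69 and 11.56.

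A copper enzyme from outside the intestinal list was also higher. Diamine oxidase aoc1, a copper amine oxidase that breaks down histamine and is made by gut and kidney in mammals, had levels of 5.52, 4.03, 6.89 and 11.51 and was 24.7-fold higher on 2 of 2 probes. Its probe lies on Zv9 at chr24:41574226-41574266 in the authors' deposited table, where its log2 change is -4.63. Not every gene of the intestinal list differed. Members within 2-fold, named after their values were seen, included the gut identity factor cdx1b at 0.07. Further ones were the alkaline phosphatase alpi.1 at -0.45 and the goblet cell gene agr2 at 0.36. The paralog alpi.2, also named after its value was seen, differed by 4.09.

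**Figure D2:**
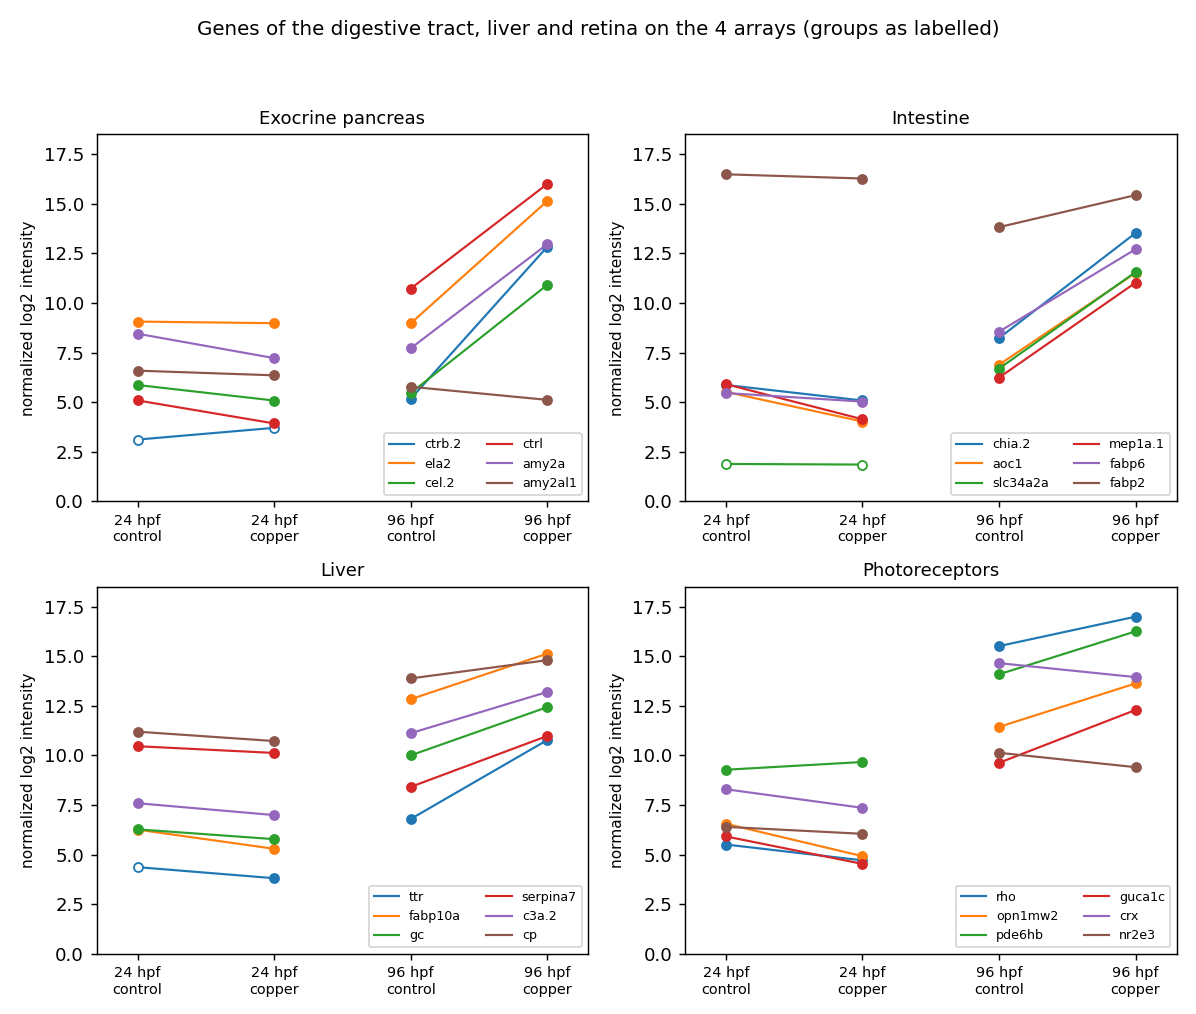
Levels of 6 genes each of exocrine pancreas, intestine, liver and photoreceptors on the 4 arrays, in normalized log2 intensity, with groups as labelled. In the intestine panel aoc1 and slc34a2a are from outside the intestinal list. Each point is 1 array, lines join arrays of the same age, and open points were not well above background. Most lines climb between the 96 hpf arrays, as for ela2 from 8.97 to 15.14, while those of amy2al1, crx and nr2e3 do not.

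Liver genes were mostly higher on the copper array but less so. Of 33 measured plasma protein genes 9 were higher by 2-fold and none was lower; 29 were above 0, against 44.1% of all genes, and the median was 0.45. Transthyretin ttr, a carrier of thyroid hormone, had levels of 4.37, 3.81, 6.79 and 10.77, a 15.8-fold difference. The liver fatty acid binding protein fabp10a had levels of 6.26, 5.29, 12.83 and 15.13. Vitamin D binding protein gc was 5.39-fold, thyroxine-binding serpina7 5.92-fold and complement c3a.2 4.23-fold higher. Clotting factor f9a, dim on the control array, was at least 3.75-fold higher. After normexp it differed by 0.63 (log2), within 2-fold. Ceruloplasmin (cp), the copper-carrying ferroxidase of plasma, stood at 11.19, 10.72, 13.88 and 14.80 and was 1.89-fold higher on 3 of 3 probes.

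Enzymes of drug and steroid metabolism were higher in about as many members as stayed within 2-fold. Of 48 measured cytochrome P450 and conjugation genes 24 were higher by 2-fold and 1 lower, with a median of 1.01. The gut and liver enzyme cyp3a65 had levels of 4.09, 3.99, 8.41 and 12.08, and cyp2n13 had 4.73, 4.12, 7.83 and 11.47. The difference of cyp2x9 was 3.32, that of cyp2ad2 2.97, that of cyp2p7 2.82 and that of cyp3c4 2.76. Glucuronosyltransferase ugt5a2, outside this list, was dim on the control array and at least 10.5-fold higher on the copper array. After normexp it differed by 1.54 (log2). The member past 2-fold the other way, named after its value was seen, was the bile canaliculus exporter abcc2 at -1.39.

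Salt-transporting skin cells and the kidney showed smaller differences. Of 30 measured ionocyte genes 8 were higher by 2-fold and none lower. In this list 25 were above 0, against 44.1% of all genes, with a median of 0.65. Carbonic anhydrase ca4b had levels of 3.73, 2.53, 10.03 and 12.56. The sodium-proton exchangers slc9a3.1 and slc9a3.2 were 3.37-fold and 2.56-fold higher, and the cytosolic carbonic anhydrase ca2 2.06-fold on 4 of 4 probes. Both exchangers had low levels on the control array, 4.54 and 5.47. After normexp they differed by 0.68 and 0.62, and ca2 by 0.93, all within 2-fold. Of 24 pronephros genes, those of the larval kidney, 7 were higher and 1 lower, with a median of 0.41. The sulfate transporter slc13a1 had levels of 5.59, 4.86, 7.78 and 10.81, an 8.22-fold difference. The organic anion transporter slc22a7b.1 was 3.2-fold higher on 4 of 4 probes, while the water channel aqp8b was 2.95-fold lower on 2 of 2 probes.

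In the retina, most genes of light detection were higher on the copper array. Of 66 listed photoreceptor genes 53 were on the array and 49 measured, 47 on both arrays. Among the 49, 33 were higher by 2-fold, or 32 with dim genes at their bounds, none was lower, and the median was 1.41. The cone phosphodiesterase subunit pde6hb had levels of 9.28, 9.67, 14.08 and 16.25, and the paralog pde6ha differed by 2.36. The rod subunit pde6ga, at 3.36, 2.86, 7.47 and 10.62, showed the largest difference of the list, 8.91-fold. The calcium sensor guca1c was 6.34-fold higher on 2 of 2 probes. Green opsin opn1mw2 was 4.57-fold higher, with its other probe at 0.80 (log2), within 2-fold. The retinoid carrier rbp3, which shuttles chromophore between photoreceptors and pigment epithelium, had levels of 4.96, 3.91, 9.77 and 13.51.

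Further members are named after their values were seen. Rod opsin rho was already high at 15.51 on the control array and stood at 16.99 on the copper array, higher on 8 of 8 probes, against 5.51 and 4.71 at 24 hpf. Ultraviolet opsin opn1sw1 differed by 1.74 and rod transducin gnat1 by 1.55. The photoreceptor transcription factor crx had levels of 8.29, 7.36, 14.65 and 13.95, a difference of -0.70 on 2 of 2 probes. The rod factor nr2e3 differed by -0.73 and the thyroid hormone receptor thrb, which specifies red cones, by -0.79, so these 3 single genes stayed within 2-fold. Cone transducin subunit gnb3a, at -0.90, and the trafficking protein unc119b, at -0.95, were the lowest members.

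Neighbouring tissues of the eye and nervous system differed less. Of 15 pigment epithelium and visual cycle genes 2 were higher by 2-fold, namely rbp3 and the retinol dehydrogenase rdh8b (4.24-fold), and the isomerase genes rpe65a and rpe65b differed by 0.40 and -0.45. The lens list, of 46 measured crystallin and related genes, had a median of 0.06 with 1 higher by 2-fold (crygn1, 2.05-fold), although its median difference between 96 and 24 hpf was 4.94. Neuronal genes had a median of 0.24, with 2 of 40 higher, the vesicular monoamine transporter slc18a2 (4.46-fold) and the filament gene inaa (3.73-fold), a share near the 6.06% of all genes. Of 23 glia and myelin genes 5 were higher by 2-fold, among them the myelin gene mpz at 10.73, 10.03, 10.70 and 12.10, and glutamine synthetase glula at 14.35, 13.71, 13.88 and 15.15. The lowest of the 3 mpz probes differed by 0.50 (log2), within 2-fold. Hair cell genes had a median of 0.03, with 3 of 25 higher, including s100t (2.24-fold).

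Part of the hatching gland genes were much lower on the copper array. Of 13 measured genes 3 were lower by 2-fold and none higher, and the median was -0.23. The hatching enzyme he1.1, an astacin protease that cuts the egg coat, had levels of 16.38, 16.32, 11.42 and 7.05, and was 20.8-fold lower on the copper array. For he1.2 the levels were 17.23, 17.10, 13.45 and 9.21 over 3 of 3 probes lower, an 18.9-fold difference. The cathepsin ctslb stood at 16.84, 16.76, 13.18 and 9.74, 10.9-fold lower on 4 of 4 probes. All 3 were therefore far below their 24 hpf levels on both 96 hpf arrays and further below on the copper array.

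The remaining 10 genes of the list stayed within 2-fold, in either direction. The gene prdm1a, a transcription factor needed for the gland, was 1.94-fold lower, the disulfide isomerase relative agr1 1.82-fold lower on 2 of 2 probes, and the secretory factor xbp1 differed by -0.45. The third hatching enzyme he1.3 had levels of 12.50, 11.97, 9.49 and 9.67, and the gland's transcription factor klf17 had 12.08, 11.81, 9.29 and 9.84. Several other cathepsin-like genes joined ctslb among the 20 lowest genes measured on both arrays. The gene MGC174155, described as cathepsin L1-like in the authors' deposited table, had levels of 17.62, 17.82, 12.68 and 9.04 and was 12.5-fold lower on 5 of 5 probes. In that table its probe lies on Zv9 at chr12:17785412-17785585, and that of ctslb at chr12:17684260-17684319. The probe of wu:fa26c03 is placed between them in the authors' deposited table, at chr12:17758534-17758593, and this gene was 10.8-fold lower. The genes si:dkey-26g8.5 and zgc:174855, with probes nearby on chromosome 12, were 10.6-fold and 7.87-fold lower. Related copies in such a cluster may share label on one probe, which was not tested.

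Red blood cell genes were lower on the copper array as well. Of 15 globin genes 8 were on the array and 7 measured, 6 of them on both arrays. All 7 were below 0, against 55.8% of all genes, with 4 lower by 2-fold and a median of -1.10. Among the 7, hbba2 was well above background only on the control array, at 4.54, and entered the count through that array. The lowest level called above background on the copper array was 4.56. The gene hbba2 thus has no fold at its bound, and its direction on this probe is not settled. Its other probe differed by -2.14 (log2). The embryonic beta globin hbbe3 had levels of 16.69, 16.59, 12.56 and 6.39, the largest difference in this direction among genes measured on both arrays, at 72.0-fold. Its probe lies on Zv9 at chr12:21691973-21692032 in the authors' deposited table, with a log2 change of 6.17. The alpha globins hbaa2 and hbae4 were 5.4-fold and 3.48-fold lower. Globins at the top of the signal range differed less on their brightest probes. Levels were 16.86, 16.71, 17.10 and 16.48 for hbae3 and 16.95, 16.92, 17.05 and 16.24 for hbae1.1. The other hbae1.1 probe differed by -1.48 (log2). How far the upper end of the scale compresses such differences was not tested.

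Of 33 measured genes of red cell development and heme synthesis 5 were lower by 2-fold, or 4 with dim genes at their bounds. In this list 25 were below 0, against 55.8% of all genes. The median was -0.40, or -0.22 at the bounds. The erythroid heme synthesis enzyme alas2 had levels of 12.30, 12.58, 12.14 and 10.07 and was 4.21-fold lower on 4 of 4 probes. The anion exchanger slc4a1a of the red cell membrane had 12.18, 12.92, 12.13 and 10.24, and the membrane skeleton gene epb41b 12.55, 12.20, 12.08 and 10.63. For these 3 genes the 96 hpf copper array lay below the other arrays, which were close to each other. Heme oxygenase hmox1a was 1.77-fold lower. White cell lists had medians near 0: neutrophil and macrophage genes had a median of -0.02 and lymphoid genes of -0.03. The granulins grna.1 and grna.2 of the former list were 5.86-fold and 5.36-fold higher, and in the latter the recombinase rag1 was 2.52-fold higher. The rag1 level on the 96 hpf control array was low, at 4.76. After normexp rag1 differed by 0.57, within 2-fold.

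**Figure D3:**
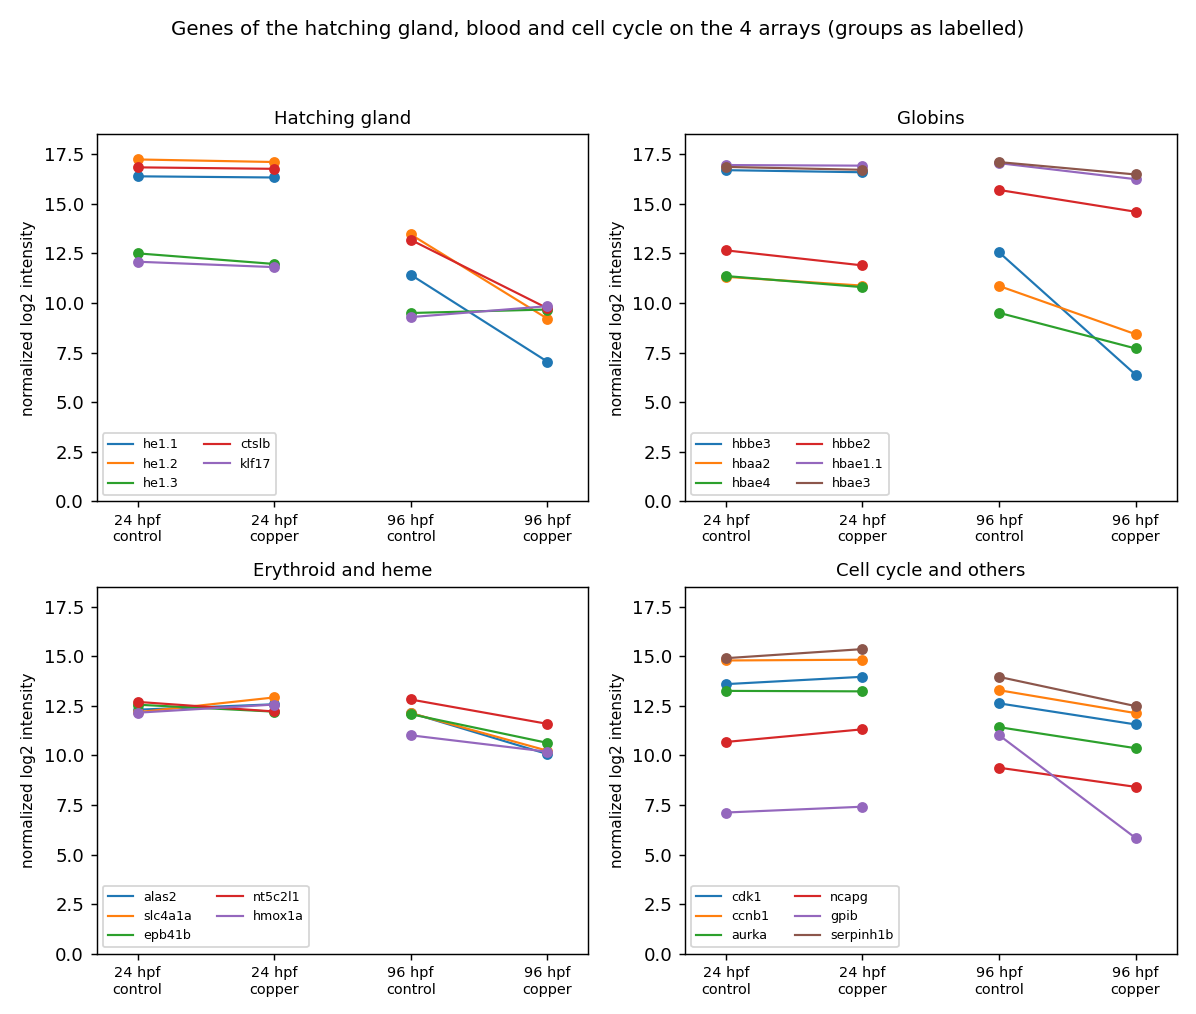
Levels of genes of the hatching gland, the globins, red cell development and the cell cycle on the 4 arrays, in normalized log2 intensity, with groups as labelled. Each point is 1 array, and lines join arrays of the same age. From the 96 hpf control to the 96 hpf copper array he1.1 goes from 11.42 to 7.05 and hbbe3 from 12.56 to 6.39, while he1.3 and klf17 are slightly higher.

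Genes of cell division were lower by small amounts in nearly all members. Of 78 measured genes 74 were below 0, against 55.8% of all genes, and the median was -0.58. By 2-fold 5 were lower, or 3 with dim genes at their bounds. Cyclin ccnb1 had levels of 14.78, 14.82, 13.29 and 12.13, lower on 6 of 6 probes. The mitotic kinases cdk1 and aurka were each 2.09-fold lower, the latter on 3 of 3 probes. Neural progenitor genes, active in dividing precursors of the brain, were below 0 in 22 of 24 members with a median of -0.41, among them the Notch ligand dlb (2.1-fold lower) and the proneural factors neurog1 (1.75-fold) and neurod4 (1.91-fold). Proteasome subunit genes were below 0 in 42 of 45 members, none past 2-fold, with a median of -0.35.

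Pigment cell and matrix lists held single genes past 2-fold, in both directions. Of all genes 2.13% were lower by 2-fold and 6.06% higher. Of 20 melanophore genes 2 were lower by 2-fold, the melanosome matrix gene pmelb (2.73-fold) and the exchanger slc24a5 (2.18-fold on 2 of 2 probes). Tyrosinase (tyr), the copper enzyme that starts melanin synthesis, was 1.74-fold higher. Its 96 hpf levels were low, at 4.61 and 5.41, and after normexp it differed by 0.21. Among 20 iridophore and xanthophore genes 3 were lower by 2-fold and 1 was higher, the lipoprotein receptor scarb1, needed for carotenoid uptake (2.39-fold on 2 of 2 probes). Of the lower ones gch2, which makes the pteridine precursor of yellow pigment, had levels of 15.16, 14.98, 14.89 and 13.84 on probes that were lower in 5 of 5 cases. Fin fold genes were below 0 in 18 of 21 members, against 55.8% of all genes, with a median of -0.27. Notochord and lysyl oxidase genes were below 0 in 12 of 15, none of them by 2-fold. Of the lysyl oxidases, copper enzymes that cross-link matrix, loxl5b and loxl2b differed by -0.67 and -0.42, and loxa was 1.57-fold higher on 4 of 4 probes. A further one, loxl3a, dim on the control array, was at least 2.36-fold higher on its single probe. After normexp loxl3a differed by 0.35, within 2-fold. Of the heat shock and hypoxia lists, the collagen chaperone serpinh1b, at 14.90, 15.36, 13.96 and 12.48, and the prolyl hydroxylase p4ha1b, at 14.10, 12.92, 11.89 and 10.00, were 2.78-fold and 3.7-fold lower.

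Hormone genes were mostly higher on the copper array. Of 43 measured 36 were above 0, against 44.1% of all genes, with a median of 0.57. By 2-fold 9 were higher and 1 lower. The appetite hormone ghrelin (ghrl) had levels of 6.13, 5.34, 6.37 and 8.28. Stanniocalcin-like stc1l, of the calcium-regulating corpuscles of Stannius, was 3.5-fold higher, the stress hormone releasing factor crhb 2.58-fold and somatostatin sst2 2.45-fold. Parathyroid hormone pth1a, which raises blood calcium, had levels of 8.45, 7.25, 8.89 and 6.85 and was 4.13-fold lower on 2 of 2 probes. Smooth muscle and swim bladder genes had 5 of 17 members higher by 2-fold, among them desmin desmb at 2.84, 2.71, 10.26 and 12.08 and actin acta2 at 8.95, 8.27, 13.76 and 15.23.

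The genes that handle metals and copper differed little between the arrays. Of 14 measured metallothionein and zinc transporter genes 1 was higher by 2-fold, a share near the 6.06% of all genes. None was lower, and the median was 0.22. Metallothionein mt2 had levels of 13.17, 13.19, 13.71 and 14.26, a 1.47-fold difference on 3 of 3 probes. The zinc exporter slc30a1a, a target of the metal-responsive factor, was 1.32-fold higher, and the zinc importer slc39a1 2.04-fold higher on 3 of 4 probes. Of this list 8 genes were above 0 and 6 below, and whether they tell which array held copper was not tested.

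Of 17 copper handling genes 1 was higher by 2-fold, a share near the 6.06% of all genes. In this list 1 was lower, or none at the bounds, and the median was 0.11. The copper importer slc31a1 had levels of 11.85, 11.45, 11.51 and 12.24 and was higher on 6 of 6 probes, by 1.65-fold. The mitochondrial phosphate and copper carrier slc25a3a was 2.57-fold higher. The exporter atp7a was close to background, with levels of 4.89, 5.18, 4.70 and 2.29, and at least 1.11-fold lower. Copper chaperones were near 0, with atox1 at 0.01, cox17 at 0.11 and cox19 at -0.15, which are named after their values were seen. Of the 13 measured members of the copper enzyme list aoc1 alone passed 2-fold, a share near that of all genes. The lysyl oxidase loxl3a, at least 2.36-fold higher but within 2-fold after normexp, is not on that list. Superoxide dismutase sod1 differed by 0.48. The direction of the median of copper enzymes, 0.07, turned to -0.03 with arrays scaled by their 75th percentile and to -0.05 after normexp correction.

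Stress pathways gave mixed single genes. Of 44 antioxidant genes 3 were higher by 2-fold, a share near the 6.06% of all genes, and 1 was lower. The glutathione transferase gstp1.1 stood at 4.42, 4.01, 10.85 and 12.92, whereas the peroxidase gpx7 of the endoplasmic reticulum was 2.66-fold lower on 2 of 2 probes. Heat shock genes had a median of -0.19, with inducible hsp70l at 9.97, 10.03, 12.65 and 12.39. Of 42 genes of the endoplasmic reticulum stress response 1 was higher and 1 lower by 2-fold. The lower one was the calcium-binding chaperone calr3b, 2.13-fold on 3 of 3 probes. Within 2-fold the disulfide isomerase pdia3 was 1.59-fold and the secreted factor manf 1.58-fold lower, the oxidase ero1b was 1.58-fold higher on 3 of 3 probes, and the main chaperone hspa5 differed by -0.46 on 6 of 6 probes. Of these, hspa5 is named after its value was seen. The stress-induced transcription factor ddit3 had levels of 9.11, 8.86, 10.15 and 11.43 and was 2.42-fold higher on 2 of 2 probes.

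Of 32 inflammation and acute phase genes 6 were higher by 2-fold and 2 lower, against 6.06% and 2.13% of all genes. The pentraxin crp2 had levels of 9.37, 9.80, 10.84 and 13.41 on probes that were higher in 3 of 3 cases, and the antimicrobial peptide gene leap2 was at least 2.22-fold higher. The chemokine ccl20a.3 and irg1l were 2.73-fold and 3.12-fold lower. Of 34 p53 and apoptosis genes 2 were higher, namely gadd45ba (2.94-fold) and mcl1b (2.12-fold), a share near that of all genes. Of 30 circadian clock genes 4 were higher by 2-fold: the repressor nr1d1 had levels of 4.27, 3.45, 5.95 and 8.56, the light- and clock-driven bhlhe41 and bhlhe40 were 2.42-fold and 2.37-fold higher, and per3 2.27-fold, each on 2 of 2 probes. The clock activator bmal2 was 1.99-fold lower. The labels used here do not give the hour of sampling.

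Among glycolysis and hypoxia genes a single gene lay far from the rest. The glucose phosphate isomerase gpib had levels of 7.12, 7.41, 11.02 and 5.84, a 36.4-fold lower level on the copper array that was also below both 24 hpf arrays. The authors' deposited table assigns gpib to another probe that carries no RefSeq name, and on that probe the levels were 8.12, 7.97, 11.60 and 7.55. In the same list the insulin-like growth factor binding protein igfbp1b was 4-fold higher and aldoca 2.68-fold higher, each on 2 of 2 probes. Respiratory chain genes were above 0 in 76 of 84 members, against 44.1% of all genes, but by little. Their median was 0.19, and the muscle isoforms cox6a2 and cox7a1 were higher by 2.22-fold and 2.08-fold.

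Further lists had medians near 0, with from none to a few members past 2-fold, against 6.06% of all genes higher and 2.13% lower. Among 82 cytosolic ribosomal protein genes and 65 mitochondrial ones none passed 2-fold, with medians of -0.05 and -0.08. Skeletal muscle genes had a median of 0.00 with 1 of 47 higher and 2 lower, heart genes of -0.11 with the natriuretic peptide nppa 2.17-fold lower on 4 of 4 probes, and cartilage and bone genes of -0.03. Of the 32 cartilage and bone genes 3 were higher by 2-fold and 1 lower, among them the bone growth signal ihha (3.1-fold higher), the bone matrix gene spp1 (2.72-fold higher on 3 of 3 probes) and the cartilage link gene hapln1a (2.21-fold lower). After normexp both the muscle median (-0.0023) and that of cartilage and bone (0.008) changed sign. Endothelial genes had a median of -0.10, with the vascular factor etsrp as the one of 27 past 2-fold, at 11.60, 12.46, 10.13 and 12.25. Wnt pathway genes had a median of -0.18, with wnt10b 2.42-fold lower.

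**Figure D4:**
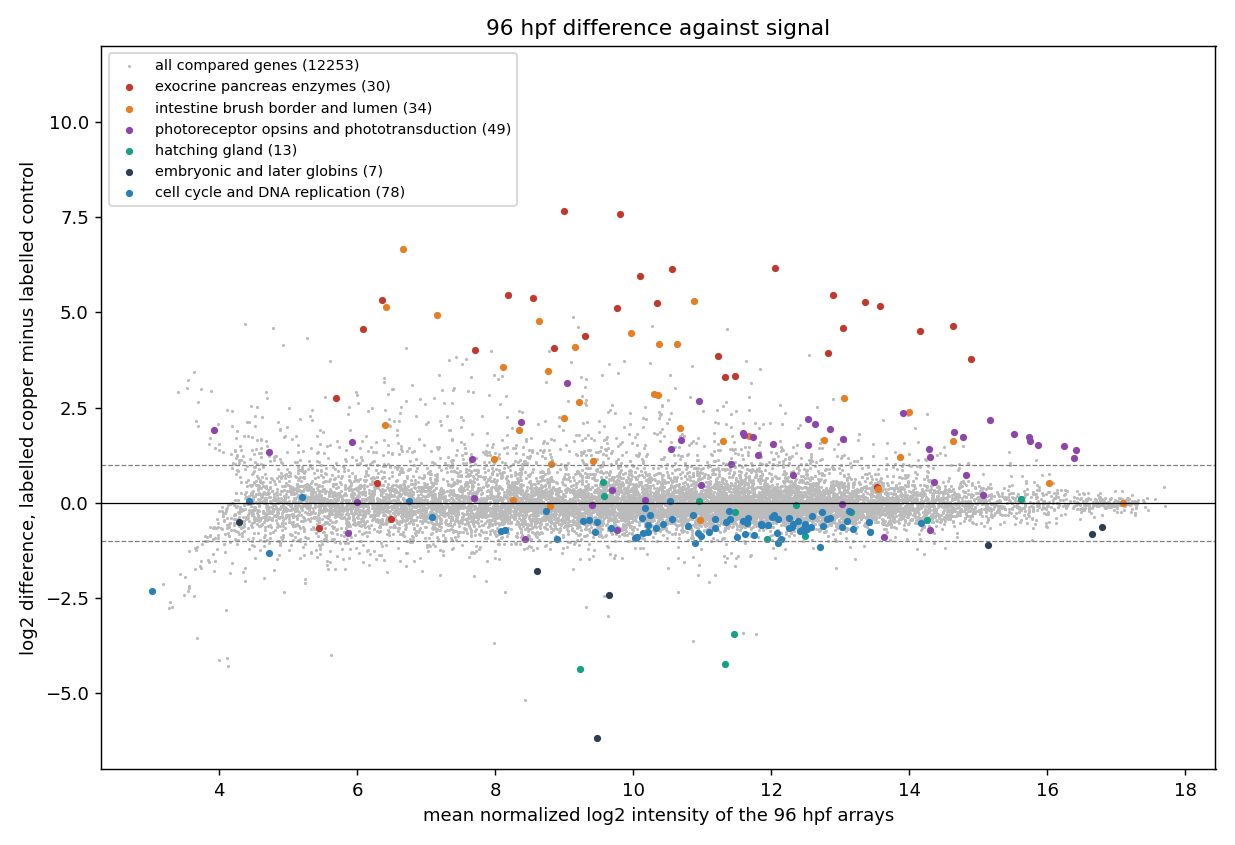
The horizontal axis is the mean normalized log2 intensity of the 96 hpf arrays, and the vertical axis the log2 difference (labelled copper minus labelled control), for 12253 genes in grey and 6 lists in colour. Dashed lines mark 2-fold. Pancreas genes lie above 2-fold over most of the signal range, with a median of 4.58, and cell cycle genes sit just below 0, with a median of -0.58.

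Skin and lipid genes held single differences of either sign, to be set beside 6.06% of all genes higher by 2-fold and 2.13% lower. Of 33 keratin, claudin and related skin genes 5 were higher by 2-fold and 1 lower, with a median of 0.05. The keratin krt95 had levels of 6.27, 5.73, 5.54 and 8.27, and the keratins krt96 and krt97, bright on all 4 arrays, were 2.46-fold and 2.17-fold higher, krt97 with 1 probe of 3 the other way. The annexin anxa1c had 16.38, 16.17, 14.88 and 13.53, 2.55-fold lower, with its other probe at -0.64 (log2). Of 40 genes of lipid transport and fatty acid oxidation 7 were higher and 2 lower. The fatty acid receptor cd36 had levels of 10.04, 9.61, 10.28 and 13.07, while the lipoprotein gene apoc4 was 5.12-fold higher and the hepatic lipase lipca, dim on the control array, at least 3.56-fold.

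Of 30 cholesterol and fatty acid synthesis genes 2 were higher by 2-fold, a share near that of all genes, and 1 was lower. The desaturase fads2 was 2.2-fold higher on 6 of 6 probes, and the low density lipoprotein receptor ldlra was 3.75-fold higher. Squalene epoxidase sqlea, an early step of sterol synthesis, was 2.1-fold lower. Of 31 immediate early transcription factors 2 were higher by 2-fold, a share near the 6.06% of all genes, and none lower. The flow-responsive factor klf2a had levels of 10.92, 10.57, 12.89 and 14.46.

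Among genes seen on only the control array, the largest bounds were small beside those in the other direction. The gene si:dkeyp-73d8.6 had levels of 1.86, 1.84, 7.62 and 3.63 and was at least 8.35-fold lower. After normexp it differed by -1.77 (log2). The sodium-proton exchanger slc9a1b was at least 3.34-fold, the formin diaph3 at least 3.27-fold and the antiviral kinase eif2ak2 at least 2.93-fold lower. After normexp slc9a1b differed by -0.82, diaph3 by -0.99 and eif2ak2 by -0.84, all within 2-fold. The other diaph3 probe differed by -0.93 without normexp. On the copper array alone, zgc:171424 was at least 8.01-fold and the complement factor H-like gene cfhl3 at least 7.56-fold higher. After normexp zgc:171424 differed by 1.71 and cfhl3 by 1.52.

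Some of the strongest probes had no RefSeq name here but carry a symbol in the authors' deposited table. Well above background on both arrays and past 4-fold, 61 such probes were higher and 13 lower. Some carry symbols of genes or lists described above. Among those named in the authors' deposited table, crp differed by 4.22 and 3.61 on its probes, the pancreatic disulfide isomerase pdia2 by 3.06 and 3.05, transthyretin ttr by 3.82, and the ammonia channel rhcgb of ionocytes by 3.01 and 2.73. In the other direction, hbbe3 had levels of 16.77, 16.49, 12.46 and 6.65 on a further probe in the authors' deposited table. A globin that this table names hbz differed by -4.81 and -4.68, and the onzin-related genes ponzr4 and ponzr3 by -3.66 and -2.38. These probes were singled out after their values were seen.

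The 96 hpf difference was also set beside the age difference, the mean of both 96 hpf arrays minus the mean of both 24 hpf arrays. Both quantities use the same 96 hpf arrays, so their values are given side by side and no relation between them is drawn. With age, 2587 genes (21.1%) were higher by 2-fold and 2168 (17.7%) lower. Lists with large age medians and large 96 hpf medians were exocrine pancreas (4.01 with age and 4.58 at 96 hpf), intestine (2.95 and 2.13) and photoreceptors (6.04 and 1.41). Cell cycle genes had -1.89 and -0.58, and neural progenitors -1.32 and -0.41.

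Other lists with a large age difference showed next to none between the 96 hpf arrays. The lens list had 4.94 with age and 0.06 at 96 hpf, neurons 2.44 and 0.24, cartilage and bone 1.43 and -0.03, skeletal muscle 1.34 and 0.00, and somite and tail bud genes -2.38 and 0.10. Medians of opposite sign occurred in 7 of 50 lists with the sample labels, and would in 43 with the 96 hpf treatment as file names give it. The 7 all had a 96 hpf median between -0.05 and 0.10. These were the pancreas and gut factors, cartilage and bone, neutrophils and macrophages, lymphoid cells, somite and tail bud, p53, and immediate early genes. The 96 hpf value of each of the 7 changed sign under some other setting, so none is settled as differing against age. For neutrophils and macrophages, p53 and immediate early genes that setting was the mean of the list in place of its median.

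**Figure D5:**
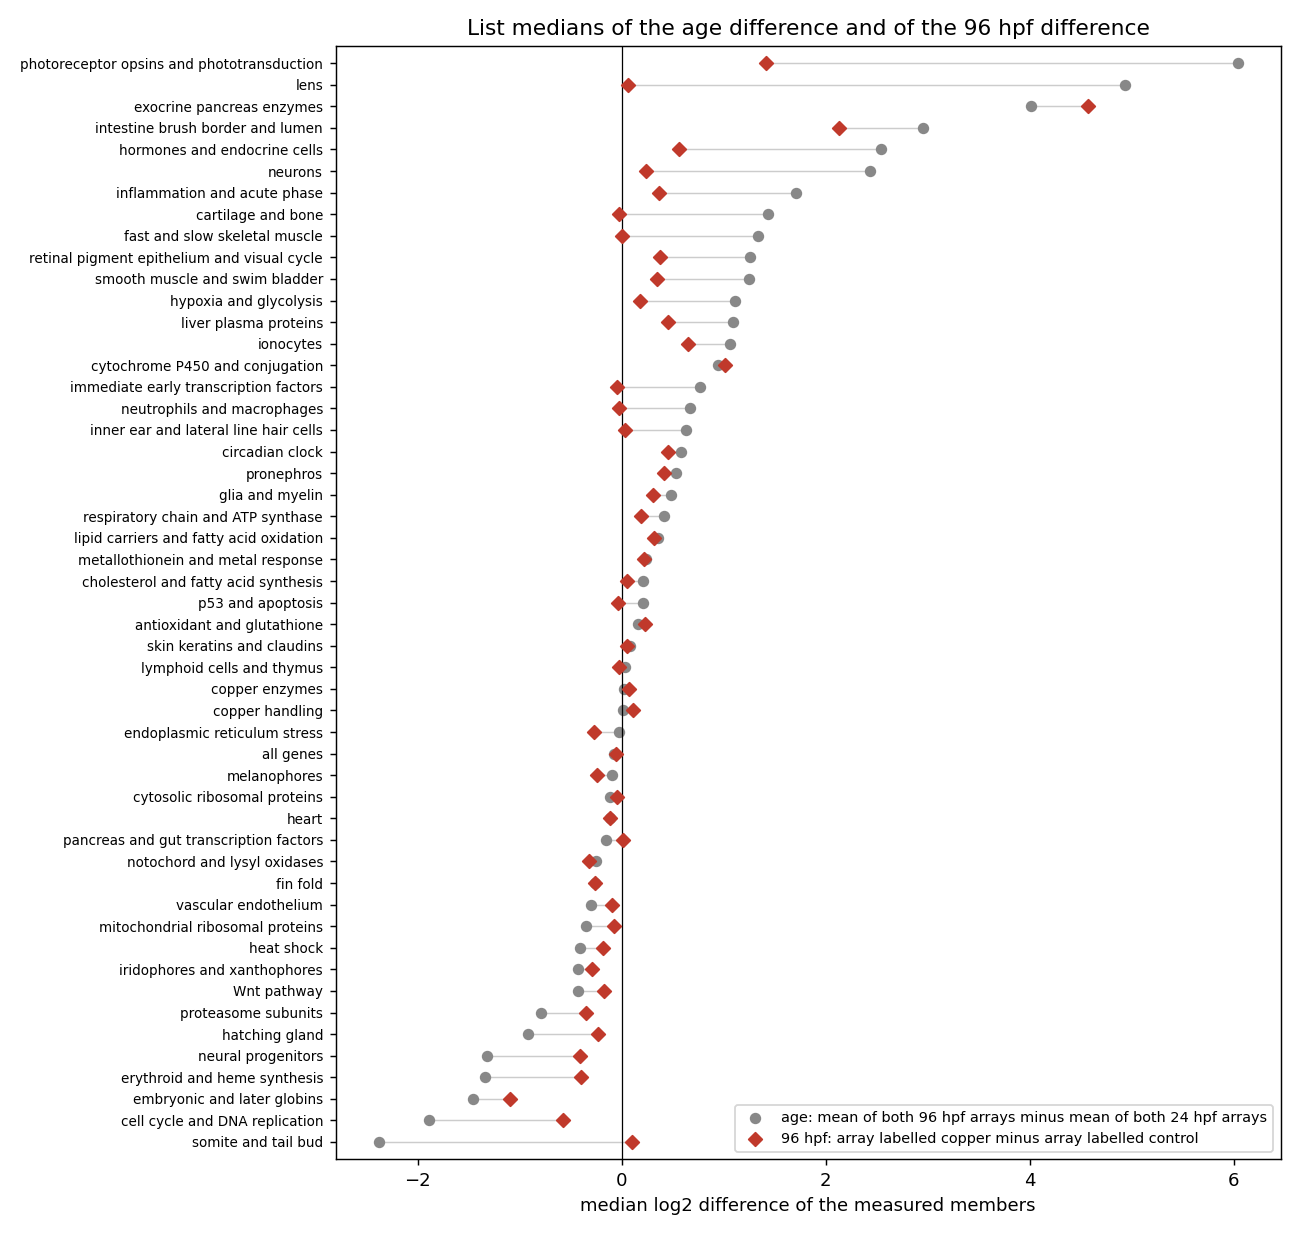
The horizontal axis is the median log2 difference of each list's measured members, in grey for age (mean of both 96 hpf arrays minus mean of both 24 hpf arrays) and as red diamonds for the 96 hpf comparison (labelled copper minus labelled control). Both use the same 96 hpf arrays. The lens list has 4.94 and 0.06, the exocrine pancreas 4.01 and 4.58.

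Of 747 genes past 2-fold in both differences, 548 were higher in both and 139 lower in both. The other 60 (0.49% of 12253) went against their own age difference, 29 higher and 31 lower on the copper array. This count depends on the arrays used: it was 137 with the age difference from the arrays labelled control, 31 from those labelled copper, and 687 with the 96 hpf treatment as file names give it. Among the higher ones the intestinal fatty acid carrier fabp2 had levels of 16.49, 16.27, 13.82 and 15.44. The desmosome gene pkp2 had 8.58, 8.02, 6.19 and 8.23, so its copper array level lay between the 24 hpf values. The keratin krt99 (2.87-fold), the transglutaminase-like tgm1l4 (2.62-fold), the egg coat gene zp2.3 (2.47-fold), the P450 cyp4t8 (2.69-fold) and the fatty acid elongase elovl8b (2.68-fold) also belonged here. The caudal homeobox gene cdx4, active in the tail bud, had levels of 11.22, 11.25, 5.86 and 7.15, and the proto-oncogene relative mych had 9.88, 9.66, 7.96 and 9.33.

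Among the 31 lower ones gpib differed most. The fatty acid carrier fabp4b had levels of 7.63, 7.39, 10.80 and 8.34, and the galectin lgals1l1 had 11.15, 11.14, 13.80 and 12.09. The gene irg1l, known from activated macrophages, had 8.38, 7.42, 11.78 and 10.13 on 2 of 2 probes lower. The muscle calcium channel cacna1sa (2.87-fold), the connexin gjc4a.2 (2.77-fold on 3 of 3 probes), the chemokine ccl20a.3 (2.73-fold) and the iridophore purine enzyme pnp4a (2.49-fold) were further members. The growth factor binding protein fgfbp2b, at 7.06, 6.93, 13.72 and 12.56, and zgc:103625, at 5.38, 4.78, 11.58 and 10.15, stayed far above 24 hpf on both arrays.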

How the data were processed

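RNA of whole zebrafish embryos, extracted with TRIzol per the labels' protocols, was labelled with Cy3 and hybridized to 4 one-colour Agilent arrays, 1 per group. Per the file headers, the deposited intensity of each spot comes from Feature Extraction 11.0.1.1, after background subtraction and without scaling between arrays. The authors' deposited table of listed probes gives log2 fold changes and Zv9 positions, used here as the authors' values. All arrays share a slide and a scan, per the file headers, and no spot was saturated.

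For this comparison the processed intensity was put on the log2 scale, spots of a probe were averaged, and the 4 arrays were quantile-normalized together. Controls and flagged outlier spots were dropped, after which 34 of 43603 probes had no value. Quantile normalization would hide a change shared by most genes. Probes well above background on at least one 96 hpf array were compared. Through RefSeq accessions 25957 probes were named for 13366 genes (names from assembly GRCz12tu, no coordinates), and 17612 stayed unnamed. Each gene is represented by the brightest, on average, of its detected probes. The 2-fold threshold is a description. The counting step was tested on simulated data.

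The comparison, the 50 gene lists and the rule for named genes were chosen with earlier results of these data known. The rule takes the 20 highest and the 20 lowest genes that were well above background on both arrays and kept their sign under 3 normalizations and on all probes. It adds the 8 largest bounds each way, up to 6 members of each list (all in lists of up to 15), 12 genes each way against the age difference, and 16 fixed genes. Among the fixed genes atp7b was not measured. A few genes that the rule or the values would name are not reported here. Lists taken by name pattern hold a few assembly factors and related genes.

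Other settings tried were 75th-percentile scaling, normexp (offset 50) on the deposited median spot and background intensity, quantile normalization of the 96 hpf arrays alone, detection on both arrays, all probes, 4-fold, the file names' treatment, the mean of a gene's probes, the mean of a list, and age differences within a treatment label. Python 3.11.15, numpy 2.4.6, pandas 2.3.3, R 4.3.3 and limma 3.58.1 were used.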

Additional observations from a re-analysis of the deposited data

Results flagged for a closer look

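At 96 and 24 hpf the difference between the arrays labelled copper and control had opposite signs, past 2-fold at both ages, in 16 of the genes named or listed here. With 1 array per group these differences between the ages were not tested, and each rests on single arrays. No share over all genes is given beside this count, so it does not set these genes apart from the rest. Before normalization the median signal at 24 hpf was 162.3 on the control array and 366.8 on the copper array. The 24 hpf list medians were -0.71 for exocrine pancreas, -0.56 for intestine and -0.53 for photoreceptors. They were above 0 only for lens, heat shock and endoplasmic reticulum stress. Some of the genes had low levels at 24 hpf, as rbp3 at 4.96 and 3.91. The file names oppose the labels at both ages: with them both signs turn and stay opposite, while a swap at 1 age alone would give these genes the same sign at both. Of the 16, several pancreas and gut genes were higher at 96 hpf and lower at 24 hpf. Amylase amy2a differed by 5.25 and -1.23, elastase cela1.5 by 4.38 and -1.40, ctrl by 5.28 and -1.16, and meprin mep1a.1 by 4.79 and -1.77. The bile acid transporter slc10a2 had 2.22 and -1.04, the amino acid transporter slc6a19b 2.83 and -1.46, and tm4sf5 3.46 and -1.92. The kidney transporter slc5a12 had 1.5 and -1.01. In the eye the values were 2.66 and -1.39 for guca1c, 1.6 and -1.29 for the opsin opn1mw3, and 3.73 and -1.06 for rbp3. The small heat shock gene hspb15 had 1.29 and -1.05, the chemokine ccl19a.1 1.04 and -1.02, and the cytokine signalling inhibitor socs3a 1.1 and -1.25. The opposite order held for calr3b, at -1.09 and 2.05, and for the cartilage link protein gene hapln1a, at -1.15 and 1.58.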

How the results depend on the processing

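With the treatment as file names give it, the counts swap: 1105 probes higher and 1991 lower, 261 genes higher and 742 lower. Normexp gave 1138 probes higher and 293 lower and 92 genes lower, so that 79.5% of probes past 2-fold and 84.7% of genes were higher, against 64.3% and 74.0% in the main setting. Normexp also brought single named genes within 2-fold. Among them were slc9a3.1 (0.68), cacna1sa (-0.61), nppa (-0.71), slc24a5 (-0.75) and hapln1a (-0.82). Detection on both arrays gave 635 probes lower, no filter 1675. At 4-fold 542 probes and 223 genes were higher, and 206 probes and 37 genes lower. List medians moved as follows. The pancreas median was 4.11 under normexp, 4.74 with the mean of probes and 4.25 as a mean of the list. For the intestine it was 2.01 under 75th-percentile scaling, 1.86 under normexp, 2.00 with detection on both arrays and 2.47 as a mean. Photoreceptors had 1.28 under normexp and 1.15 as a mean, P450 genes 0.82 and 1.16. Globins had -1.45 with detection on both arrays, -1.33 with the mean of probes and -1.92 as a mean. Genes past 2-fold against age numbered 137 with the age difference from the arrays labelled control, 31 from those labelled copper, 3 at 4-fold, and 687 with the 96 hpf treatment as file names give it, an alternative chosen after seeing the data. These causes were not tested, beyond the threshold and the file names, which act by construction. The median of a list, or the mean used in its place, changed sign under some setting in 11 lists. All of these had medians between -0.05 and 0.10 in the main setting. For neutrophils and macrophages, p53 and immediate early genes the sign changed only with the mean of the list. No paired analysis was possible because each group has 1 array. The number of arrays, 1 per group, limits every value, and dim probes limit folds to bounds.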
